A study of Homo sapiens with 2 samples.

Results

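S100 calcium-binding protein genes were examined in MDA-MB-231 cells with and without depletion of RBMS1, an RNA-binding protein. The 10 genes described, S100A2, S100A3, S100A4, S100A6, S100A7, S100A8, S100A9, S100A11, S100A13 and S100A16, were taken as a list of gene symbols, joined to the GENCODE release 29 annotation, with earlier results of these data known. No threshold on a value entered the rule, and they are 10 of 49609 annotated genes listed in either library. MDA-MB-231 is an established human line of triple-negative breast cancer, that is, without estrogen receptor, progesterone receptor or amplified HER2. There were 2 RNA-seq libraries, 1 from cells in which RBMS1 was knocked down (RBMS1 knockdown) and 1 from control cells (control), both grown in L-15 medium with fetal bovine serum in air without added carbon dioxide. According to the methods of the study, knockdown used lentiviral pLKO.1 short hairpin RNA with puromycin selection and the control carried the empty pLKO.1 vector. The labels title the knockdown library plko_S1 and do not describe the hairpin, and with 1 knockdown library the effects of RBMS1 depletion and of that particular culture cannot be told apart.

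S100 proteins are small calcium sensors built from paired EF-hand motifs, and most act as dimers that open a binding face when calcium rises. Inside the cell they bind annexins, myosin and other cytoskeletal proteins, and several are also released and signal through surface receptors such as RAGE. Most of the human genes sit in a cluster on chromosome 1, within and beside the epidermal differentiation genes. In breast cancer S100A4 is known for its link to motility and metastasis, while S100A7, S100A8 and S100A9 are known from inflamed skin, keratinocytes and myeloid cells.

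Levels are given as FPKM, fragment counts scaled by transcript length and by the size of the library, summed over the transcripts of a gene, with the interval that the quantification software Cufflinks gave (summed over transcripts). This interval covers the estimation within 1 library and not the variation between cultures. Each group is a single library, so nothing could be checked against replicates, no test, SD or p-value is given, and differences are described by the log2 ratio of (FPKM + 1), knockdown over control. The pseudocount of 1 pulls the ratios of low genes towards 0, and plain folds of FPKM are given for some genes only. Since these are bulk libraries, a change in the number of cells that express a gene and a change in RNA per cell cannot be told apart.

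RBMS1 itself was listed at 3.76 FPKM (interval 3.12 to 5.39) in the knockdown library and 24.1 FPKM (21.7 to 27.7) in control, 15.6% of the control level, in the direction of the labels. The number of reads is unknown, because the deposited values are not counts, but the median coverage per FPKM was 12.3 in the knockdown library and 11.3 in control, close to each other. Among genes whose mean over both libraries reached 1 FPKM, 301 (2.69%) were listed at exactly 0 in 1 library only, 140 in the knockdown library and 161 in control. They included genes that every cell uses. MRPL11, a mitochondrial ribosomal protein gene, was listed at 0 after knockdown and at 69.5 FPKM in control, and PSENEN, a gamma-secretase subunit gene, was listed at 49.5 FPKM and at 0, so a listed 0 is not read as absence of expression. Markers of the line were present, with VIM at 496 and 563 FPKM in knockdown and control, and CDH1, ESR1 and PGR were all under 0.1 FPKM in both. ERBB2, which encodes HER2, was listed at 7.50 FPKM in the knockdown library and 7.005 FPKM in control.

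Promoters of 4 S100 genes are shown because S100A3, S100A4 and S100A6 lie close together and were all higher in the knockdown library, whereas S100A11, from the same chromosome, differed little. Each runs from 250 bases before to 50 bases after the start site in RefSeq (build GRCh38.p14), 5′ to 3′ on the minus strand, from which all 4 genes are transcribed. Capitals mark TATAAA on the gene strand, TGANTCA on either strand and GGGCGG on either strand, and all other bases are in lower case. The windows were chr1:153545757-153546056 for S100A4, chr1:153549209-153549508 for S100A3, chr1:153535942-153536241 for S100A6 and chr1:152036955-152037254 for S100A11.
S100A4: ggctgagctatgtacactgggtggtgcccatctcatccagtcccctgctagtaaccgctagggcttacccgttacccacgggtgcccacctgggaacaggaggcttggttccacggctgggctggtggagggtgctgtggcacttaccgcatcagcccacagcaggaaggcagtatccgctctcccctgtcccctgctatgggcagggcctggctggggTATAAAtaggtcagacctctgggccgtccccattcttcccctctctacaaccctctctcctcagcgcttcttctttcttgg
S100A3: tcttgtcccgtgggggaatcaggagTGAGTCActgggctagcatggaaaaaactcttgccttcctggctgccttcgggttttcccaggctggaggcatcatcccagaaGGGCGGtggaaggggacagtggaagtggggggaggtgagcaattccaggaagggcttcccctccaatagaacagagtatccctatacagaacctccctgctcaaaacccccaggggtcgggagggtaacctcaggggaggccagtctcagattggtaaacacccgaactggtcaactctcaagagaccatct
S100A6: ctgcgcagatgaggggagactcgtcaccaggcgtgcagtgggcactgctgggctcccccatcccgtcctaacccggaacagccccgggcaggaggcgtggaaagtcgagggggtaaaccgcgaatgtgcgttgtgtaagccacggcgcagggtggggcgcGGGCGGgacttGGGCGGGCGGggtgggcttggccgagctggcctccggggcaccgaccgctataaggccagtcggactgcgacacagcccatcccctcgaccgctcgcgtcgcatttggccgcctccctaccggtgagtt
S100A11: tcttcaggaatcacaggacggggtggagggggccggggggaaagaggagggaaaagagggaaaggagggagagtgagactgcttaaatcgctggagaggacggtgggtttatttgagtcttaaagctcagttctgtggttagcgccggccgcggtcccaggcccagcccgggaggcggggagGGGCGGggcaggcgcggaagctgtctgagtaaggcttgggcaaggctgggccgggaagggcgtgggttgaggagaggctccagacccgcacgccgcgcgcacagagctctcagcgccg
TATAAA, the letters of a TATA box, was in the S100A4 window alone among these 4, with its first base at position -31 from the start site. TGANTCA, the letters that AP-1 factors bind, was in the S100A3 window alone among these 4, at position -225. GGGCGG, the letters that SP1 binds, was in the windows of S100A3 at position -142, of S100A11 at position -68 and of S100A6 in 3 places, 2 of which overlap. Among 35116 promoters of the same length, 7.33% held TATAAA, 7.71% held TGANTCA and 44.95% held GGGCGG. A match is only a description of letters. The main transcripts began upstream of the RefSeq start, by 79 bases for S100A4, 114 for S100A3, 231 for S100A6 and 31 for S100A11, and so within these windows. Thus TATAAA of S100A4 and all 3 GGGCGG of S100A6 lie downstream of the start of the main transcript of their gene. The matches of S100A3 and S100A11 lie upstream of it. All 10 genes had a promoter in the RefSeq table.

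S100A4 had the largest ratio among the 6 of these S100 genes that were above 0 in both libraries. It encodes metastasin, which binds nonmuscle myosin heavy chain (ENSG00000196154, minus strand, chr1:153543613-153550136). It was listed at 445 FPKM (interval 420.0 to 471) in the knockdown library and at 178 FPKM (165 to 192) in control. The intervals did not overlap, the fold was 2.497 and the log2 ratio was 1.32. Set at the nearest ends of both intervals the log2 ratio was 1.12, and at the farthest ends it was 1.51. Among all genes ordered by level, S100A4 ranked 95 in the knockdown library and 223 in control.

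S100A3, which encodes a zinc- and calcium-binding protein best known from the hair cuticle, lies within the annotated span of S100A4 on the same strand (ENSG00000188015, chr1:153547329-153549372). It was listed at 10.7 FPKM (interval 9.35 to 12.2) in the knockdown library and at 4.31 FPKM (3.45 to 5.33) in control. The fold of 2.48 was close to that of S100A4 at a far lower level, and the intervals did not overlap. The log2 ratio was 1.14, and 0.71 at the nearest ends of the intervals, which is under 2-fold, as was the 0.75 obtained with a pseudocount of 5. S100A6 encodes calcyclin, which binds the ubiquitin ligase adaptor CACYBP (ENSG00000197956, minus strand, chr1:153534599-153536244). It was the most abundant S100 gene in both libraries, at 1419.7 FPKM (interval 1358 to 1482) in the knockdown library and 1103 FPKM (1055 to 1152) in control. Among all genes it ranked 13 and 16. Its intervals did not overlap either, but the difference was smaller, 1.29-fold with a log2 ratio of 0.36.

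Expression of S100A11, S100A16 and S100A2 differed by less than the intervals of the 2 libraries. S100A11 encodes calgizzarin, a partner of annexin A1 (ENSG00000163191, minus strand, chr1:152032506-152047907), and was listed at 403 FPKM (interval 383 to 423) in the knockdown library and 409 FPKM (389 to 429) in control. Its log2 ratio was -0.02. S100A16, a broadly expressed EF-hand member (ENSG00000188643, minus strand, chr1:153606886-153613145), was listed at 88.5 FPKM (82.5 to 94.8) and 80.5 FPKM (74.6 to 86.6), a log2 ratio of 0.14, or -0.29 when only reference transcripts were summed. S100A2, an epithelial member that binds p53 (ENSG00000196754, minus strand, chr1:153561108-153567890), was listed at 13.9 FPKM (10.7 to 17.6) and 16.3 FPKM (11.1 to 21.9). Its log2 ratio was -0.22, or 0.11 by its dominant transcript alone.

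S100A13 was listed in the knockdown library only. It encodes a copper-binding member known for a role in the release of FGF1 and interleukin-1 alpha (ENSG00000189171, minus strand, chr1:153618787-153631360). Its level was 21.4 FPKM (interval 19.05 to 24.3) in the knockdown library, all of it in 1 transcript, S100A13-204. In control all 6 of its reference transcripts were listed at 0, and their summed upper bound was 0.746 FPKM. No fold is given, because 2.69% of all genes whose mean reached 1 FPKM, MRPL11 and PSENEN among them, had the same pattern of a level in 1 library and 0 in the other. S100A13 overlaps S100A1, a gene on the opposite strand that was at 0 in both libraries, and whether the libraries kept strand is not given in the sources used here.

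S100A7, S100A8 and S100A9 were listed at 0 in both libraries with intervals of 0 to 0. S100A7 encodes psoriasin (ENSG00000143556, chr1:153457744-153460701), and S100A8 and S100A9 encode the subunits of calprotectin (ENSG00000143546, chr1:153390032-153391188 and ENSG00000163220, chr1:153357854-153361027). All 6 reference transcripts of these 3 genes were at 0, and no assembled transcript shared an intron with them. Markers of cell types known to express them were measured in the same libraries, with the limit that a listed 0 does not show absence. Of 7 neutrophil and monocyte markers, 4 (ITGAM, MPO, ELANE and CSF3R) were at 0 in both libraries, and the summed level of all 7 was 1.08 FPKM in the knockdown library and 1.005 FPKM in control. Of 7 markers of stratified keratinocytes, 4 (KRT1, KRT5, LOR and SPRR1B) were at 0 in both libraries and IVL was at 0 in the knockdown library, and the summed level of 73.6 and 85.6 FPKM was almost all KRT10, at 73.4 and 85.5 FPKM. FLG, which encodes filaggrin of the cornified epidermis and was named after its values were seen, was listed at 22.4 and 19.3 FPKM. The part of these cell types in the other S100 results was not tested.

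**Figure D1:**
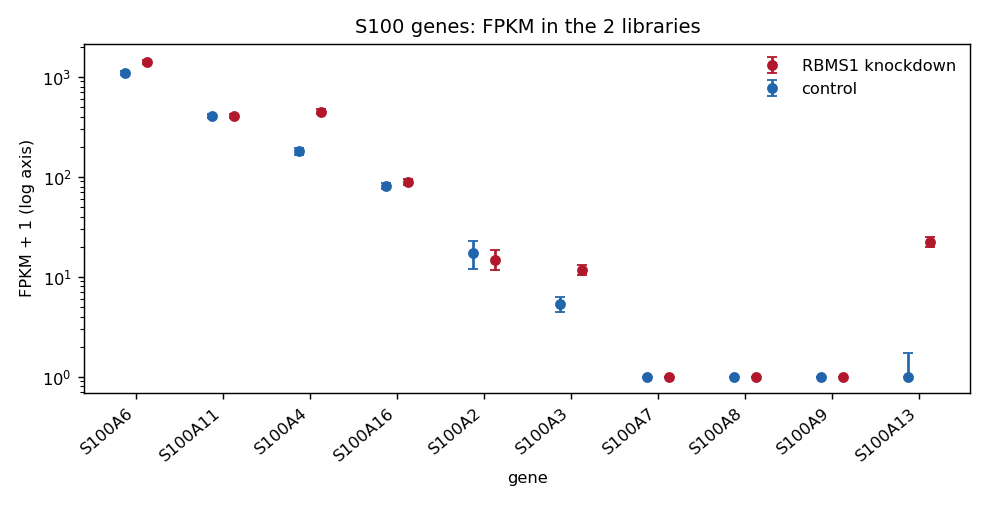
Level of the 10 S100 genes as FPKM + 1 on a log axis, with 1 point per library (red, RBMS1 knockdown; blue, control) and bars for the Cufflinks interval within that library. S100A4 and S100A3 stood higher in the knockdown library with no overlap of the bars, S100A13 was listed at 21.4 FPKM against 0, and S100A7, S100A8 and S100A9 lay at 0 in both.

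The order of the S100 genes by level, which FPKM allows because it is per length, differed between the libraries in the place of S100A4. In control the order was S100A6, S100A11, S100A4, S100A16, S100A2 and S100A3, and no neighbours had overlapping intervals. In the knockdown library S100A4 stood between S100A6 and S100A11, followed by S100A16, S100A13, S100A2 and S100A3. There S100A4 and S100A11 had overlapping intervals, and so had S100A2 and S100A3. In control S100A11 was listed at 2.29 times the level of S100A4, and in the knockdown library S100A4 was listed at 1.11 times the level of S100A11. The 10 genes together summed to 2402 FPKM in the knockdown library and 1791 FPKM in control, which was 0.654% and 0.496% of the FPKM of all genes.

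Counted over the list, 7 of the 10 genes reached a mean of 1 FPKM, and 3 of these (S100A3, S100A4 and S100A13) were at least 2-fold higher in the knockdown library on the log2 (FPKM + 1) scale, while 0 were at least 2-fold lower. Among all 11179 genes at that mean level, 2.94% were at least 2-fold higher and 2.78% at least 2-fold lower. S100A13 reached the mean through the knockdown library alone. Among genes above 0 in both libraries, 2 of 6 S100 genes were at least 2-fold higher and 0 lower, against 1.54% higher and 1.57% lower of 10878 genes. The median log2 ratio was 0.36 over the 7 genes and 0.25 over the 6, beside a median of 0.02 over all genes in either set. The count of 2 included S100A3, which was under 2-fold with a pseudocount of 5, so these few genes give no test against the shares over all genes.

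**Figure D2:**
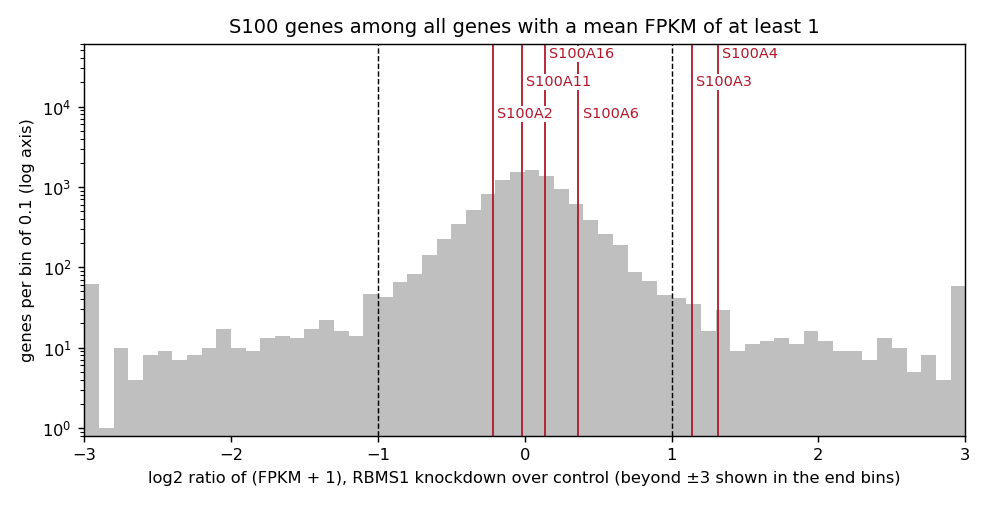
Histogram of the log2 ratio of (FPKM + 1), RBMS1 knockdown over control, for the 11179 genes whose mean reached 1 FPKM (grey, genes per bin on a log axis), with red lines for the 6 S100 genes above 0 in both libraries and dashed lines at 2-fold. S100A3 at 1.14 and S100A4 at 1.32 lay past the right dashed line, and the other 4 lay between -0.22 and 0.36.

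By position, S100A3 and S100A4, both past 2-fold, lay in a run of neighbours with ratios above 0. Ratios above 0 were common, in 5901 of 11179 genes whose mean reached 1 FPKM and in 7 of 9 such S100 genes. The run was marked off by these same ratios, and S100A3 lies within the span of S100A4, so the run is a description only. Along chromosome 1 the run S100A6, S100A5, S100A4 and S100A3 had log2 ratios of 0.36, 1.08, 1.32 and 1.14, all above 0, though that of S100A5 depended on the transcripts summed. S100A5, a high-affinity calcium binder known from olfactory neurons and not among the 10 genes, was listed at 3.15 FPKM (interval 0.786 to 5.51) in the knockdown library and 0.957 FPKM (0.105 to 1.86) in control. Its intervals overlapped, and 3 assembled transcripts entered its knockdown value and 0 its control value. From reference transcripts alone, a setting chosen after seeing the data, S100A5 summed to 1.47 FPKM after knockdown and 0.957 FPKM in control, so that its log2 ratio was 0.34 and under 2-fold. S100A13, listed in the knockdown library only, and S100A10, with a log2 ratio of 0.74, lay outside this run. The next S100 gene beyond S100A3, after 11735 bases, was S100A2, with a log2 ratio of -0.22, overlapping intervals and a ratio of 0.11 by its dominant transcript alone. The next before S100A6, after 73897 bases, was S100A7, listed at 0 in both libraries. Between S100A11 and S100A13, 45 annotated protein-coding genes outside the S100 family were listed in either library, mostly of the epidermal differentiation complex. Of these, 36 were at 0 in both libraries and 2 reached a mean of 1 FPKM, with log2 ratios of -0.14 and 0.21, neither past 2-fold. Over all genes 2.94% were at least 2-fold higher and 2.78% at least 2-fold lower, so this is not a result about these genes.

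**Figure D3:**
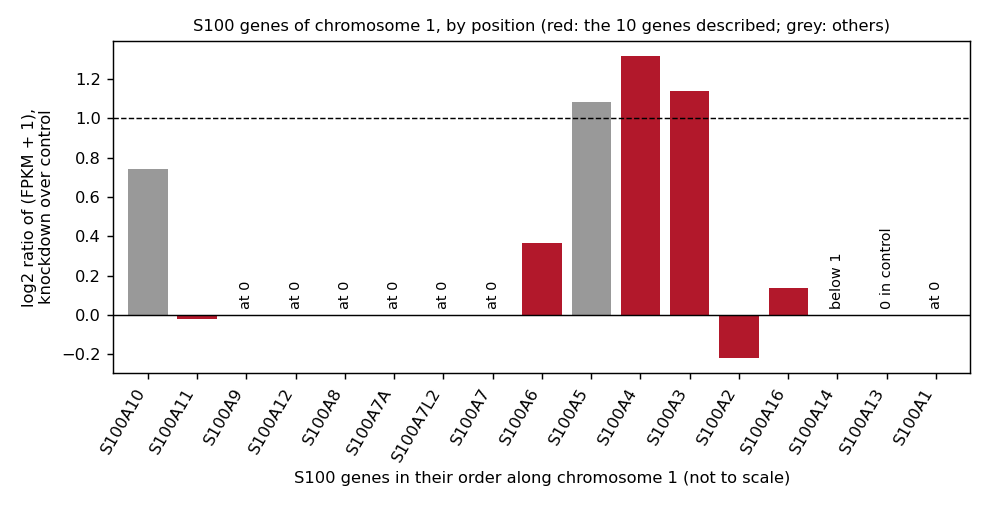
Log2 ratio of (FPKM + 1), knockdown over control, for the S100 genes of chromosome 1 in their order along the chromosome (not to scale), red for the 10 genes described and grey for the others, with words in place of bars where a gene was at 0 or had a mean below 1 FPKM. The run from S100A6 to S100A3 stood above 0, with S100A4 highest at 1.32 and S100A5 at 1.08 (0.34 from reference transcripts alone), and S100A2 beside it stood at -0.22 with overlapping intervals, or at 0.11 by its dominant transcript alone.

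Transcripts of S100A4 were higher together. S100A4-204, the main form, was listed at 366 FPKM (interval 348 to 384) in the knockdown library and 149.6 FPKM (140.4 to 159) in control, a fold of 2.45. S100A4-201, which has 4 exons instead of 3, was listed at 79.4 FPKM (72.3 to 86.4) and 28.7 FPKM (24.7 to 32.8), a fold of 2.76. The main form made up 82.2% of the gene in the knockdown library and 83.9% in control, so the balance of the forms differed little. S100A3, S100A6 and S100A11 were each listed through 1 transcript in both libraries, S100A3-202, S100A6-201 and S100A11-201.

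S100A16 and S100A2 had forms listed in 1 library only. The main form S100A16-204 was listed at 65.5 FPKM (interval 61.6 to 69.4) in the knockdown library and 59.5 FPKM (55.8 to 63.2) in control, 74.0% and 73.9% of the gene. The rest lay in S100A16-203 at 20.97 FPKM in control and in an assembled transcript at 23.0 FPKM in the knockdown library, where S100A16-203 was listed at 0. The first exon of S100A16-203 spans 446 bases (chr1:153608899-153609344), and the assembled transcript has 2 exons of 172 and 132 bases there (chr1:153609178-153609349 and chr1:153608899-153609030), with an intron between them. Both share the middle exon chr1:153607999-153608177 with the main form. For S100A2, the coding forms S100A2-203 and S100A2-202 were listed at 7.65 and 6.23 FPKM after knockdown and at 7.03 and 5.43 FPKM in control. A further form, S100A2-204, was listed at 3.83 FPKM (1.95 to 5.71) in control and at 0 after knockdown, and the lower S100A2 sum in the knockdown library came from this form.

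Of 11 other S100 family genes, 5 were at 0 in both libraries and only S100A5 and S100A10 reached a mean of 1 FPKM. S100A10, the light chain that joins annexin A2 at the plasma membrane, lies at the far end of the cluster (ENSG00000197747, chr1:151982915-151994390). It was listed at 417 FPKM (interval 396 to 440) in the knockdown library and 249 FPKM (234 to 264) in control. The intervals did not overlap, and the fold was 1.68 with a log2 ratio of 0.74. S100A11, the next S100 gene after 38115 bases, had a log2 ratio of -0.02. Over all 21 S100 genes, 9 reached a mean of 1 FPKM. S100A13 and S100A5 were under that level in control and reached the mean through the knockdown library.

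Receptors for released S100 proteins were followed as a list. Of 8 on the list (AGER, TLR4, BSG, NPTN, ALCAM, MCAM, CD36 and CD33), 6 reached a mean of 1 FPKM and 0 were past 2-fold, beside 2.94% higher and 2.78% lower over all genes, shares at which 0 of 6 genes is not a result about the receptors. The 6 log2 ratios were all above 0, with a median of 0.18 beside 0.02 over all genes, of which 5901 of 11179 had ratios above 0. The intervals of the 2 libraries overlapped for each of the 6 receptors. The largest was that of AGER, which encodes RAGE, listed at 2.28 FPKM (interval 1.07 to 4.39) in the knockdown library and 1.15 FPKM (0.205 to 2.97) in control, with a plain fold of 1.98 and a log2 ratio of 0.61. The smallest was that of BSG, which encodes basigin, a receptor for the calprotectin subunits, at 195 and 191 FPKM with a log2 ratio of 0.03.

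Among 18 genes for intracellular partners and co-released proteins of the S100 family, 16 reached a mean of 1 FPKM, 2 were at least 2-fold lower and 0 were at least 2-fold higher, with a median log2 ratio of 0.03. Over all genes 2.78% were lower and 2.94% higher by this measure. Both lower genes, IL1A and MDM2, were under 1 FPKM in the knockdown library and reached the mean through control. For MDM2 the count rests on a listed 0, which is not read as absence. IL1A, which encodes interleukin-1 alpha, was listed at 0.873 FPKM (interval 0.664 to 1.08) in the knockdown library and 6.90 FPKM (6.30 to 7.51) in control, which was 12.6% of control, with a log2 ratio of -2.08. MDM2, the ubiquitin ligase of p53, was listed at 0 in the knockdown library and 9.66 FPKM in control, but its summed upper bound in the knockdown library was 16.7 FPKM, so the intervals overlapped. That bound adds up those of its 34 reference transcripts, none above 0 there, and is not an interval estimated for the gene. Above 0 in both libraries, only IL1A was past 2-fold, 1 of 15 genes, beside 1.57% lower and 1.54% higher over all genes. A single gene that reached the mean through control is not a result about the partners. The largest ratio was that of AHNAK, a giant scaffold protein bound by S100A10 with annexin A2, at 167 FPKM (160.3 to 175) and 119.8 FPKM (114.8 to 125.6). Its intervals did not overlap, and the log2 ratio was 0.48.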

How the data were processed

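RNA-seq was done on 2 libraries of MDA-MB-231 cells, 1 RBMS1 knockdown and 1 control, grouped by the labels. The authors deposited, per library, transcript models with FPKM values and intervals, and a table of the series with FPKM per transcript that keeps only transcripts with a low p-value of their own comparison; its fold change, p and q columns were not used. The submitters' processing notes name Bowtie2 2.0.6, TopHat2 2.0.9, Cufflinks 2.1.1 and Cuffdiff 2.1.1. The genome build and strand setting are not given in the sources used here; 98.1% of matched reference transcripts start at GENCODE positions on GRCh38, so coordinates are given on that build.

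Reference transcripts were joined by identifier to GENCODE release 29, and assembled transcripts were added to a gene with which they share at least 1 intron on the same strand. Gene FPKM and interval bounds are sums over transcripts. Ratios are log2 of (FPKM + 1), knockdown over control, and counts past 2-fold cover genes whose mean reached 1 FPKM. The ratio, the 2-fold counts and the assignment of assembled transcripts were tested on simulated data. With 1 library per group no test was run. Promoters came from RefSeq. Python 3.11.15, numpy 2.4.6 and matplotlib 3.10.9 were used.

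The 10 S100 genes and the lists of family genes, receptors, partners and markers were chosen with earlier results of these data known. Named were all 10 genes, other S100 genes that reached this mean, of each of the 2 partner lists the largest decrease, the largest increase and every gene past 2-fold, RBMS1, and at most the 4 highest transcripts per gene with at least 1 FPKM. On the receptor list no gene at this mean was lower, so the smallest ratio was named. MRPL11, PSENEN and FLG were named after their values were seen. Alternatives changed the pseudocount, the transcripts summed, the scaling, the filter and the source table.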

Additional observations from a re-analysis of the deposited data

Results flagged for a closer look

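In the deposited table of the whole series, which the comparisons above do not use, 7 transcripts of 3 of the 10 S100 genes were listed, and 4 of them were at 0 in both per-library files. S100A13-204 and S100A6-201, which held the levels of S100A13 and S100A6 described above, were not among the 7. S100A4-203 (ENST00000368715) was at 44.3 FPKM in the knockdown column and 12.004 FPKM in the control column. S100A6-202 (ENST00000368720) was at 23.7 and 8.73 FPKM. S100A3-201 (ENST00000368712) was at 5.28 and 1.16 FPKM. S100A4-202 (ENST00000368714), whose intron holds S100A3, was at 5.09 and 0.993 FPKM. All 4 were higher in the knockdown column, but the table keeps only transcripts chosen by the authors' p-value on the same 2 libraries, so this direction is not independent evidence. The table has its own scale, on which S100A4-204 was at 651 and 274 FPKM.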

How the results depend on the processing

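Over the alternatives run, the number of S100 genes at least 2-fold higher was 2 or 3, the number at least 2-fold lower was 0 in each, and their median log2 ratio lay between 0.25 and 0.38. The count was 2 with a pseudocount of 5, where S100A3 had a log2 ratio of 0.75, with genes above 0 in both libraries only, and without S100A13, a setting chosen after seeing the data. S100A4 lay between 1.25 and 1.33, S100A6 between 0.34 and 0.38 and S100A3 between 0.75 and 1.29. S100A2 was at 0.11 with the dominant transcript only, and S100A16 at -0.29 with reference transcripts only, which leaves out its assembled form. The ratio of S100A13 depends on the pseudocount and is no bound. Over all genes, the numbers at least 2-fold lower and higher, 311 and 329, were 132 and 124 with a pseudocount of 5, 507 and 553 from reference transcripts alone, 477 and 500 from each gene's dominant transcript, 667 and 658 as TPM, 138 and 140 at a mean FPKM of at least 5, and 171 and 168 above 0 in both libraries. No paired analysis was possible because each group holds 1 library, and none could be left out. The number of reads is unknown, so no counting error could be computed for differences of low genes.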
